A study of Mus musculus with 30 samples.

Results

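The genes described here are 7 genes of the visual cycle and of the retinal pigment epithelium that runs it: Rpe65, Rgr, Lrat, Rdh5, Rdh10, Best1 and Ttr. The rule that picks them is their name, with no threshold on a measured value, but they were chosen with earlier results of these data known. On the arrays, 6 of the 7 had a probe set carrying their symbol alone, out of 12393 genes measured in all, and Best1, a chloride channel of the pigment epithelium, is not analysed here. Of several such probe sets of a gene, the brightest one on average over the 30 arrays was used, which mattered for Ttr alone. Values are log2 expression levels as the authors deposited them.

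Total RNA came from 1 retina of each of 30 mouse pups, in 10 groups of 3 pups. Oxygen-induced retinopathy (OIR) is a model of retinopathy of prematurity in which pups are kept in 75% oxygen for 5 days from day 7 after birth (P7), lose part of their retinal capillaries, and become hypoxic once back in room air. A normoxia group and an OIR group had no injection. All 8 other groups had OIR and an injection into the vitreous, either at P5, before oxygen, or at P12, on return to room air. At each day the injection held saline, 100000 endothelial colony-forming cells (ECFC), 10000 CD34+ cells, or the combination of these, 110000 cells. The labels name no strain. They give P17 as the stage of all retinas, but the protocol names both P12 and P17, and the series' design text has retinas injected at P5 collected at P12. If that text holds, the 12 arrays of the P5 groups came from younger retinas. Age at collection then cannot be told apart from injection at P5 wherever P5 groups are compared with P12 or uninjected groups.

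In the visual cycle, light turns the 11-cis retinal of the photoreceptor pigments into the all-trans form, and the pigment epithelium behind the photoreceptors turns it back. Lrat joins vitamin A to a fatty acid, Rpe65 isomerises that ester to 11-cis retinol, and Rdh5 oxidises the product to 11-cis retinal, with Rdh10 as a further retinol dehydrogenase that Müller glia also express. Rgr is an opsin of the pigment epithelium and Müller glia that binds all-trans retinal. Ttr, transthyretin, carries thyroid hormone and the vitamin A binding protein, and is made in the eye mainly by the pigment epithelium. The pigment epithelium touches the neural retina without being part of it.

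Every array carried retina: the mean level of 8 rod photoreceptor genes lay between 13.22 and 13.58 on all 30 arrays. Markers of other eye tissues differed between arrays. The mean of 14 lens genes, all of them crystallins or other lens proteins, ranged from 7.68 to 13.98 on the 12 P5 arrays and from 6.37 to 9.18 on the 18 others. The mean of the 18 spiked-in hybridisation control probe sets ran from 11.86 to 12.96 on the P5 arrays, from 12.44 to 12.79 on the 6 uninjected arrays, and from 13.23 to 13.65 on the 12 P12 arrays. The P12 arrays thus stood apart from all others in these controls, and a difference in hybridisation and the injection day cannot be told apart wherever P12 groups are compared with P5 or uninjected groups. As a floor for the readings, Xist read between 4.48 and 5.70 on the 16 arrays where the Y-linked Eif2s3y was the higher of the pair. On the 14 other arrays Eif2s3y read lower, between 3.84 and 4.83. The range of Xist is the floor meant below.

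Rpe65, the isomerase, was highest in retinas injected at P5 with CD34+ cells, at 10.53, 9.15 and 9.90 (9.86 ± 0.69, SD, n = 3). In P5 saline retinas it read 7.96, 10.23 and 10.01 (9.40 ± 1.25, SD, n = 3), in the P5 combination group 8.80, 9.45 and 7.12 (8.46 ± 1.20), and in P5 ECFC retinas 5.24, 8.48 and 9.35 (7.69 ± 2.17). The uninjected OIR retinas were lowest, at 6.83, 6.83 and 6.04 (6.57 ± 0.46), against 7.08, 7.72 and 7.97 in normoxia (7.59 ± 0.46). Group means at P12 lay close together, from 7.35 in the combination group to 7.88 in the CD34 group, with single arrays from 6.70 to 8.57. Of the 12 P5 arrays, 8 lay above all 18 others, yet replicate 1 of P5 ECFC was the lowest of the 30, inside the range of the floor given by Xist, though above that of Eif2s3y. How many of all genes had as many P5 arrays above all others was not counted, so such counts, here and below, are descriptions. In these bulk samples, more pigment epithelium in the tissue and more RNA per pigment epithelial cell cannot be told apart.

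Rgr, the retinal-binding opsin, had the same order at its ends. It read 11.47, 10.42 and 10.65 in P5 CD34 retinas (10.85 ± 0.55, SD, n = 3), 9.15, 10.93 and 10.65 in P5 saline retinas (10.25 ± 0.96) and 7.96, 7.71 and 6.53 in OIR (7.40 ± 0.76). Normoxia retinas read 8.24, 8.83 and 9.09 (8.72 ± 0.44) and P12 saline retinas 8.65, 8.13 and 7.56 (8.12 ± 0.54). P5 ECFC retinas read 7.50, 9.61 and 10.28 and P5 combination retinas 9.44, 10.001 and 7.88, and 10 of the 12 P5 arrays exceeded all others. The 2 exceptions were replicate 1 of P5 ECFC, at 7.50, and replicate 3 of the P5 combination, at 7.88.

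Lrat, the enzyme that forms the retinyl esters, was at 9.93, 8.01 and 9.01 in P5 CD34 retinas (8.99 ± 0.96, SD, n = 3) and 7.94, 9.17 and 9.10 in P5 saline retinas (8.74 ± 0.69). OIR read 7.09, 5.86 and 6.03 (6.33 ± 0.67) and normoxia 6.83, 7.26 and 7.03 (7.04 ± 0.22). P12 saline retinas read 7.28, 6.47 and 6.47 (6.74 ± 0.47), and the 12 P12 arrays together lay between 6.43 and 7.28. P5 ECFC retinas were spread over 6.04, 7.35 and 8.72 and P5 combination retinas over 7.87, 8.27 and 6.48. Again 10 of 12 P5 arrays were above all others, and the same 2 arrays, P5 ECFC replicate 1 at 6.04 and P5 combination replicate 3 at 6.48, were not.

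Rdh5, the 11-cis retinol dehydrogenase, was at 10.57, 9.33 and 9.78 in P5 CD34 retinas (9.89 ± 0.63, SD, n = 3) and 7.49, 9.36 and 9.14 in P5 saline retinas (8.67 ± 1.03). Normoxia retinas read 7.39, 7.93 and 7.91 (7.74 ± 0.31) and OIR 7.29, 7.24 and 6.75 (7.09 ± 0.30). P12 saline retinas read 7.06, 7.04 and 6.80 (6.97 ± 0.15), a narrow group, whereas P5 ECFC retinas read 6.85, 8.29 and 9.005 and P5 combination retinas 8.40, 9.06 and 7.38. The lowest group mean was that of P12 ECFC, 6.85 ± 0.32, and 9 of the 12 P5 arrays exceeded all others.

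Ttr, the carrier protein, read 14.03, 13.34 and 13.73 in P5 CD34 retinas (13.70 ± 0.35, SD, n = 3) and 12.79, 13.33 and 13.40 in P5 saline retinas (13.17 ± 0.33). OIR retinas read 11.98, 11.83 and 11.10 (11.64 ± 0.47) and normoxia retinas 11.73, 12.30 and 12.39 (12.14 ± 0.36). P12 saline retinas read 12.49, 12.13 and 11.91 (12.18 ± 0.29), P5 ECFC retinas 10.89, 13.00 and 13.53 and P5 combination retinas 13.12, 13.41 and 12.25. Here 10 of 12 P5 arrays were above all others, and P5 ECFC replicate 1, at 10.89, was the lowest of the 30. Another 2 probe sets carried the symbol of Ttr alone.

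Rdh10, the retinol dehydrogenase shared with Müller glia, had another pattern. Its group means ran only from 10.96 in the P5 combination group to 11.53 in the P5 CD34 group. Normoxia retinas read 11.02, 11.14 and 11.33 (11.17 ± 0.16, SD, n = 3), OIR retinas 11.32, 11.42 and 11.42 (11.39 ± 0.06) and P12 saline retinas 11.29, 11.63 and 11.54 (11.49 ± 0.17). The P5 saline retinas spread from 10.22, the lowest of the 30 arrays, to 11.53, and P5 CD34 replicate 1 was the highest at 12.25. One P5 array of 12 lay above all the others.

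**Figure D1:**
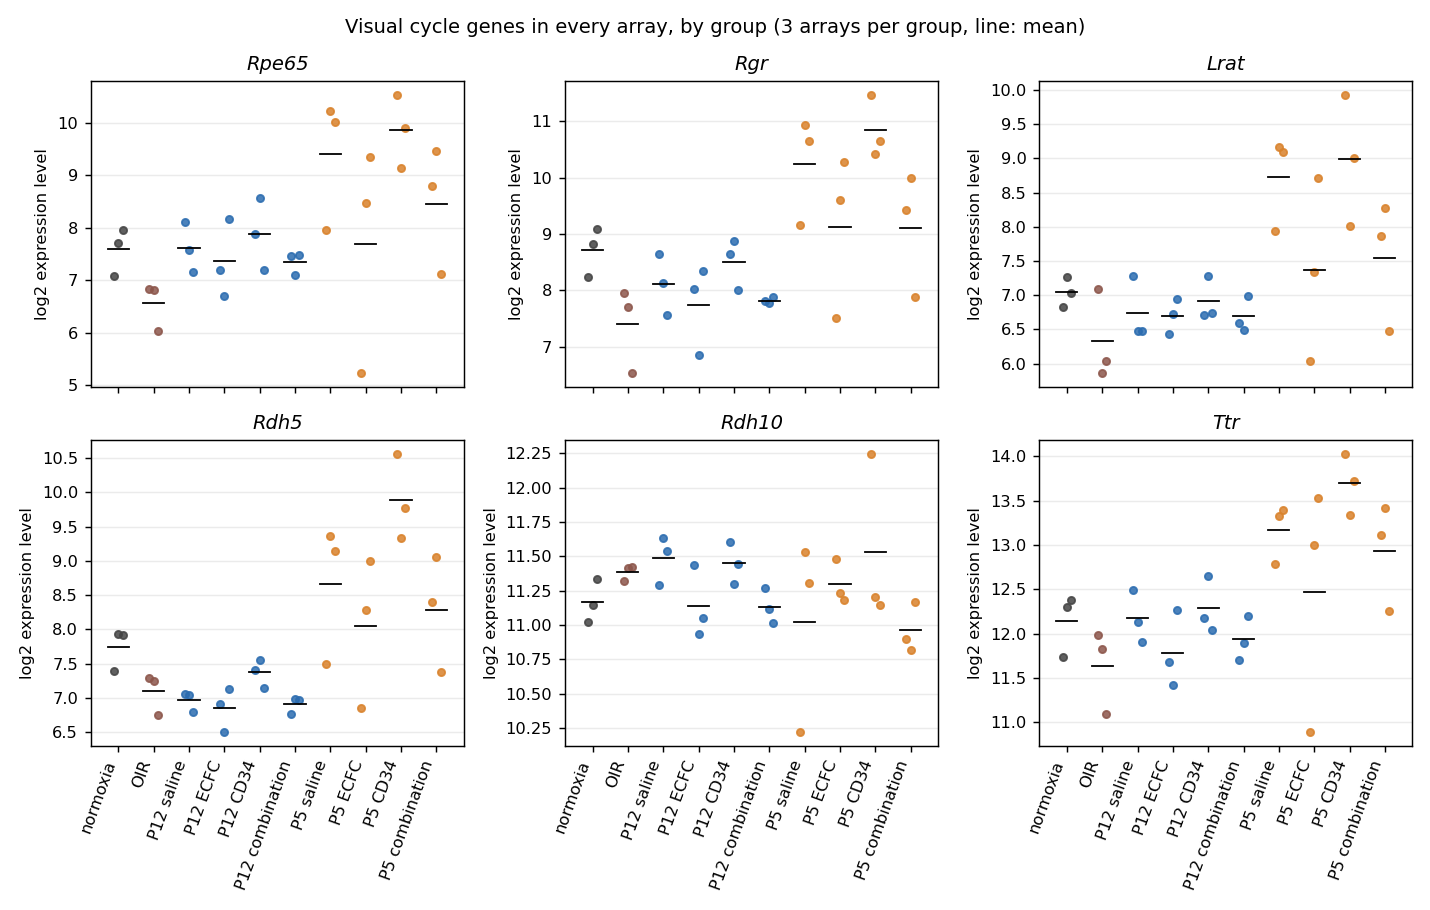
Log2 expression level (vertical axis) of the 6 measured genes in each of the 30 arrays, by group, with 3 points per group and a line at the group mean. The P5 groups (orange) spread upwards for Rpe65, Rgr, Lrat, Rdh5 and Ttr, with P5 ECFC replicate 1 near the bottom in each of these, while Rdh10 stays between 10.22 and 12.25.

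With the 10 groups ordered by mean, neighbouring groups overlapped in range in all 9 pairs for Rgr, Lrat, Rdh5, Rdh10 and Ttr. For Rpe65 they overlapped in 8 of 9, so almost no step in these orders was wider than the spread between replicates. P5 CD34 was the highest group for all 6 genes, and replicate 1 of that group was the highest single array for all 6. That array had the lowest lens mean of the P5 arrays, 7.68, and the lowest hybridisation control mean of all 30, 11.86. The part of these measures in its levels was not tested. Spread between replicates differed by group: the SD ran from 0.21 to 2.17 for Rpe65 and from 0.05 to 1.45 for Rgr, and P5 ECFC was the widest group for Rpe65, Rgr, Lrat, Rdh5 and Ttr.

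The 5 genes with the P5 pattern also tracked each other from array to array. Over the 12 P5 arrays, the 10 pairs among Rpe65, Rgr, Lrat, Rdh5 and Ttr had Pearson correlations of 0.89 to 0.97, and over the 18 other arrays 0.50 to 0.91. The 5 pairs that hold Rdh10 ran from 0.15 to 0.50 on the P5 arrays and from -0.38 to 0.08 on the others. These are descriptions, since arrays of one group share their treatment and all genes of an array share its hybridisation.

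The sequences before the start sites of the enzymes and the opsin that tracked each other are shown because a shared promoter element would be looked for there. They are the 250 bases upstream of each start from RefSeq (GRCm38.p6), 5′ to 3′ on the gene's strand. That table held the start of Rpe65 (chr3:159598931-159599180, + strand), Rgr (chr14:37049015-37049264, - strand), Lrat (chr3:82903975-82904224, - strand) and Rdh5 (chr10:128919298-128919547, - strand). Capitals mark matches on either strand to GGATTA, the core recognised by OTX factors such as Otx2, and to the E-boxes CACGTG and CATGTG, to which Mitf-type factors bind.
Rpe65: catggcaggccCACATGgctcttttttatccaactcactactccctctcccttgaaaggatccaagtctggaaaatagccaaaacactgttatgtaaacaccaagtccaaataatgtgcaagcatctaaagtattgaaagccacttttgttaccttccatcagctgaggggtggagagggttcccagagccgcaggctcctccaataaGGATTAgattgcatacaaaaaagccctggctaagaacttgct
Rgr: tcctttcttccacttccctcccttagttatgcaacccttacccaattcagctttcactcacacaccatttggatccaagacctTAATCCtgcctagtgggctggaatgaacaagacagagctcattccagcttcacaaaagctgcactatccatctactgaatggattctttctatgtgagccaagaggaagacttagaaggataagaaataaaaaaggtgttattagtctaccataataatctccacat
Lrat: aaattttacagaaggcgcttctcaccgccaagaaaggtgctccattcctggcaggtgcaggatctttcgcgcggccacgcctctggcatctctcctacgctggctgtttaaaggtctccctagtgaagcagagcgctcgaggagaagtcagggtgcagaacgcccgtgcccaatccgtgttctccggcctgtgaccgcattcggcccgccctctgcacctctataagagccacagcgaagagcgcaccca
Rdh5: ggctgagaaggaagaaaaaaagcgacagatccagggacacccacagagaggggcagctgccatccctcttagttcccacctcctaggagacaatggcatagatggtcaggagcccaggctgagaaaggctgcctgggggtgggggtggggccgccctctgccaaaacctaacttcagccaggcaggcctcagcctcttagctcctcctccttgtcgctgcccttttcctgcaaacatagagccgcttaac
Rpe65 held GGATTA at bases -42 to -37 from the start and CATGTG, as its reverse complement CACATG, at -239 to -234. Rgr held GGATTA, as its reverse complement TAATCC, at -167 to -162. The windows of Lrat and Rdh5 held none of the 3 motifs, so the 4 genes share none of these letters in this stretch. Over the 32851 windows of the same length in the table, 6.25% held GGATTA, 6.02% CACGTG and 12.3% CATGTG. A match in these letters is not a binding site, and no match says nothing of the factor.

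OIR against normoxia asks what the model did to the uninjected retina. The 5 genes with the P5 pattern all had lower means in OIR, but none passed. Rgr differed by -1.32 ± 0.61 (log2 difference ± SE, limma, adjusted p = 0.23), Rpe65 by -1.02 ± 0.75, Lrat by -0.71 ± 0.54, Rdh5 by -0.65 ± 0.46 and Ttr by -0.50 ± 0.44. Rdh10 differed by 0.22 ± 0.26. The limma test called 0 of 6 members, while 4.56% of all genes were called. An unadjusted p under 0.05 was reached by 1 of the 6, and by 2455 of all 12393 genes. The OIR and normoxia arrays did not overlap for 3 of the 6 genes. How many of all genes separated in this way was not counted, so this adds nothing to the tests. Of the 13 other pigment epithelium genes measured, Ezr, which links actin to the cell membrane, rose by 0.87 ± 0.24 (adjusted p = 0.037), and 0 of 9 melanin genes and 0 of 27 other retinoid genes passed.

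P5 saline against uninjected OIR asks what an injection at P5 without cells did. If the P5 retinas were collected younger, the injection and age at collection cannot be told apart here. Rgr rose 7.19-fold, a log2 difference of 2.85 ± 0.61 (SE, limma, adjusted p = 0.0051), and Lrat rose 5.31-fold (2.41 ± 0.54, adjusted p = 0.0068). Rpe65 rose 7.14-fold (2.83 ± 0.75, adjusted p = 0.02), Rdh5 2.98-fold (1.57 ± 0.46, adjusted p = 0.035) and Ttr 2.90-fold (1.54 ± 0.44, adjusted p = 0.03). All 3 P5 saline arrays lay above all 3 OIR arrays for these 5 genes, but how many of all genes separated in this way was not counted. Rdh10 differed by -0.36 ± 0.26 (adjusted p = 0.4). Thus 5 of 6 members were called higher, where 8.69% of all genes were called and 3.81% were called higher. The members' median difference was 1.99, against 0.02 over all genes.

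The calls for Rgr and Lrat held with each array left out, and the others did not. Without OIR replicate 1, 2 or 3 the count was 4, 3 and 2, and without P5 saline replicate 2 or 3 it was 2 each time. Rpe65 missed the threshold without P5 saline replicate 2, P5 saline replicate 3 or OIR replicate 3, with adjusted p from 0.067 to 0.088. Ttr missed it without either of those P5 saline arrays or OIR replicate 2 or 3, and Rdh5 without any 1 of the 3 OIR arrays or of those P5 saline arrays. With these 6 arrays alone in the fit, the differences were the same and 0 of 6 members passed, with adjusted p of 0.059 for Ttr, 0.06 for Lrat, 0.07 for Rgr, 0.08 for Rpe65 and 0.15 for Rdh5. All 14 measured lens genes were also called higher, with a median difference of 6.42. With the lens mean as a covariate, Rpe65, Rdh5 and Ttr had larger differences (3.88, 2.52 and 2.11) that did not pass, and 2 members were called.

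Pigment epithelium genes outside the members followed in part. Of 13 measured, 12 were higher in P5 saline than in OIR and 2 passed: Slc16a8, the lactate transporter of the pigment epithelium's basal side, by 1.32 ± 0.23 (adjusted p = 0.0011) and Krt8, a keratin of simple epithelia, by 1.24 ± 0.27 (adjusted p = 0.0065). Slc16a8 read 8.79, 9.43 and 9.30 in P5 saline and 7.88, 8.10 and 7.57 in OIR. All 9 melanin synthesis genes were higher and 2 passed, Tyr, the first enzyme of melanin synthesis, by 1.27 ± 0.35 and Oca2, a melanosome transporter, by 1.01 ± 0.22. The OIR means of Tyr and Oca2, 5.67 and 5.31, lay within the range of the floor. Of the 27 other retinoid genes 1 passed, the retinoic acid binding protein Crabp1, by 0.56 ± 0.17. Among the 8 measured rod genes and the 9 of Müller glia, 0 passed by limma. Choroid plexus epithelium also makes Ttr. Of the 12 choroid plexus and secretory epithelium genes, 9 were higher in P5 saline and 3 of them passed, Car12 by 1.56 ± 0.46, Ecrg4 by 0.91 ± 0.22 and Slc4a5 by 0.63 ± 0.14. Aqp1 (-0.93 ± 0.19) and Kcne2 (-0.50 ± 0.11) fell. The markers Folr1, at a mean of 7.96 against 7.16, and Kl, at 5.52 against 5.14, were not called, and Kl lay within the range of the floor on 2 of the 3 P5 saline arrays. The part of such epithelium in the difference of Ttr was not tested.

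Against normoxia, the same P5 saline retinas gave differences of 1.81 ± 0.75 for Rpe65, 1.70 ± 0.54 for Lrat, 1.53 ± 0.61 for Rgr, 1.03 ± 0.44 for Ttr and 0.92 ± 0.46 for Rdh5. Rdh10 differed by -0.14 ± 0.26. Limma called 0 of 6 members, with 8.1% of all genes called, and Lrat came nearest at an adjusted p of 0.051. An unadjusted p under 0.05 was reached by 4 of the 6, and by 2829 of all 12393 genes. With array weights 4 members were called, and without P5 saline replicate 1, 1 member was called, Lrat. This comparison shares its P5 saline arrays with the one against OIR, and the same limit of age at collection. In the other lists 3 pigment epithelium genes (Ezr, Krt8 and Slc16a8) and 3 melanin genes (Tyr, Dct and Pmel) rose, with 0 lower in either. Of the retinoid genes 2 rose, Rdh9 and Crabp1, and 1 fell, Rdh14. Both means of Rdh9, 5.63 and 4.76, and the normoxia mean of Tyr, 5.38, lay within the range of the floor. Among markers of other tissues 13 of 14 lens genes were called higher, with a median difference of 4.92, as was Calml4 of the choroid plexus list, and the rod genes Pdc and Gnat1 and the Müller glia gene Aqp4 fell. Of 7 ciliary epithelium genes 0 were called higher and 1 lower. With the lens mean as a covariate Lrat was the 1 member called.

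P12 saline against OIR asks the same of the later injection. Rpe65 differed by 1.05 ± 0.75, Rgr by 0.71 ± 0.61, Ttr by 0.54 ± 0.44, Lrat by 0.41 ± 0.54, Rdh10 by 0.10 ± 0.26 and Rdh5 by -0.13 ± 0.46. None of the 6 passed, although 21.3% of all genes were called. Limma gave 0 of the 6 an unadjusted p under 0.05, against 4170 of all 12393 genes. For Rpe65 the 3 P12 saline arrays lay above the 3 OIR arrays, but how many of all genes separated in this way was not counted. In the limma fit of these 6 arrays alone Rpe65 passed (adjusted p = 0.026). With the hybridisation controls as a covariate Rdh10 passed, at 1.02.

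Injection day was compared with the same vehicle and then over all 4 injections. P5 saline exceeded P12 saline by 2.13 ± 0.61 for Rgr (4.38-fold, limma, adjusted p = 0.01), 1.99 ± 0.54 for Lrat (3.98-fold, adjusted p = 0.0069) and 1.70 ± 0.46 for Rdh5 (3.25-fold, adjusted p = 0.0076). Rpe65 (1.78 ± 0.75, adjusted p = 0.081), Ttr (0.99 ± 0.44, adjusted p = 0.095) and Rdh10 (-0.47 ± 0.26, adjusted p = 0.19) did not pass. So 3 of 6 members were called higher, where 27.7% of all genes were called and 19.2% were called higher. Of the calls, 69.1% were higher, against 50.2% once arrays were quantile normalized and 35.1% once each was centred on its median, a step that shifted the middle of all genes by -0.18. Without P5 saline replicate 2 the count was 1, Lrat alone, and without P12 saline replicate 3 Rgr missed the threshold (adjusted p = 0.056). Without P5 saline replicate 1, Rpe65 passed as well, at 2.50 (adjusted p = 0.022). With array weights 5 were called, Rpe65 and Ttr among them. All 14 lens genes were called higher here too, with a median difference of 6.29, and with their mean as a covariate 3 members were called.

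Over all 12 P5 and 12 P12 arrays, Rgr rose by 1.79 ± 0.30 (3.45-fold, limma, adjusted p = 2.4e-05), Rdh5 by 1.70 ± 0.23 (3.24-fold, adjusted p = 1.4e-06), Lrat by 1.40 ± 0.27 (2.63-fold, adjusted p = 0.0001), Rpe65 by 1.30 ± 0.38 (2.46-fold, adjusted p = 0.0044) and Ttr by 1.02 ± 0.22 (2.03-fold, adjusted p = 0.00032). Rdh10 differed by -0.10 ± 0.13 (adjusted p = 0.52). The 5 of 6 called higher stand beside 65.1% of all genes called and 34.2% called higher, so a call on its own says little here and the sizes carry the description: the members' median was 1.35, against 0.01 over all genes. Centring each array on its median moved the median of all genes by -0.18 here and the share of calls that were higher from 52.5% to 27.5%. The same 5 members stayed called higher under that setting, and Rdh10 was called lower at -0.28.

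The hybridisation control means of the P5 and P12 arrays did not overlap, and with them as a covariate 0 of these 5 genes passed by limma. Rgr was then at 0.98, Ttr at 0.90, Rdh5 at 0.78, Lrat at 0.69 and Rpe65 at 0.49, and Rdh10 was the 1 member called, at -1.05. Between P5 and P12 saline the same covariate ended the calls of Rgr (1.11), Lrat (1.11) and Rdh5 (0.54), and Rdh10 was the 1 member called, at -1.67. The comparison of P5 saline with uninjected OIR, whose control means lie in the range of the P5 arrays, had 6 members called under that covariate, with Rdh10 lower by -0.65. All 14 lens genes were called higher in the P5 groups, with a median difference of 4.27. With the lens mean as covariate, Rdh10 turned to 0.49 (adjusted p = 0.033) in the comparison of injection days and all 6 members were called.

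In the same comparison of days, 8 of 13 other pigment epithelium genes were called higher and 2 lower. As 65.1% of all genes were called here and 34.2% called higher, calls in these lists say little on their own. Ezr rose by 0.87, Serpinf1, which encodes the factor PEDF, by 0.99, Slc16a8 by 0.63, Krt8 by 0.73 and Stra6, the receptor that takes up vitamin A, by 0.89, whereas Otx2, a transcription factor of photoreceptors and pigment epithelium, fell by 0.30. Of 9 melanin genes 7 were called higher and 0 lower by limma, led by Dct (1.93 ± 0.21), Tyr (1.50 ± 0.18), Pmel (1.56 ± 0.23) and Tyrp1 (1.75 ± 0.27). The P12 mean of Tyr, 5.51, lay within the range of the floor. Of the 12 choroid plexus and secretory epithelium genes 7 were called higher and 5 lower. Of 7 ciliary epithelium genes 4 were called higher and 1 lower. Of the 27 other retinoid genes 14 were called higher and 8 lower. Crabp1 (0.83) and the retinol dehydrogenase Rdh13 (0.41) rose, and Adh7 (-0.84) and the retinaldehyde dehydrogenase Aldh1a3 (-0.52) fell. Genes of the same cycle that photoreceptors or Müller glia express, picked for this role after their values were seen, had small differences. They were -0.15 for the dehydrogenase Rdh12, -0.13 for Rbp3, the carrier between the cell layers, 0.22 for Abca4, the photoreceptor transporter of retinal, and 0.24 for Rlbp1, the 11-cis retinal binding protein. These 4 passed by limma, but centring each array on its median shifts all genes by about as much (-0.18), so their sizes depend on the scaling. For the dehydrogenase Rdh11, which was not called, group means lay from 8.85 to 9.28 at P5 and from 8.92 to 9.34 at P12.

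**Figure D2:**
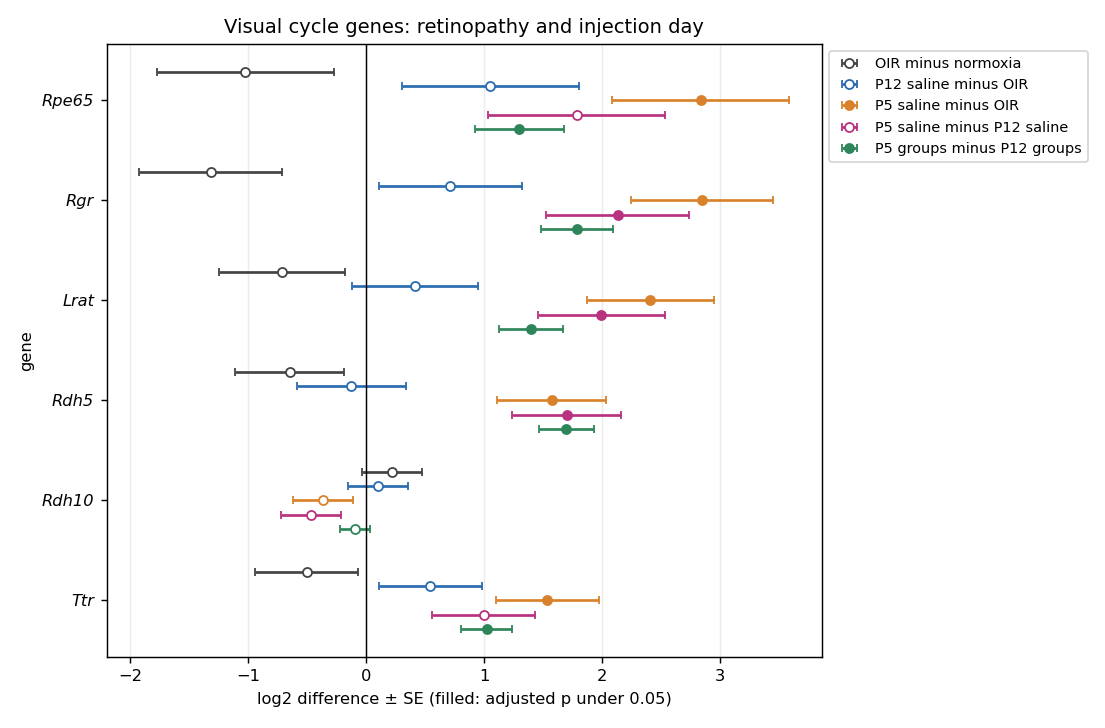
Log2 difference ± SE (horizontal axis) of the 6 measured genes in 5 comparisons of uninjected and injected retinas; filled points passed at an adjusted p under 0.05. Rpe65, Rgr, Lrat, Rdh5 and Ttr are filled against OIR (orange) and over all P5 against P12 groups (green), and Rdh10 is open throughout.

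The cells were compared with saline of the same day. At P12, ECFC, CD34+ cells and the combination each gave 0 of 6 members called by limma. Of all genes 0.0161%, 0% and 0% were called. Each gave 0 members at an unadjusted p under 0.05, against 1996, 643 and 1226 of all 12393 genes. The largest differences were -0.39 ± 0.44 for Ttr with ECFC, 0.40 ± 0.46 for Rdh5 with CD34+ cells and -0.36 ± 0.26 for Rdh10 with the combination. All 6 genes were below saline with ECFC and with the combination, and 5 of 6 above it with CD34+ cells. These 3 comparisons share the P12 saline arrays.

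At P5 no member passed either. With ECFC, Rpe65 differed by -1.71 ± 0.75 (limma, adjusted p = 0.73), Lrat by -1.37 ± 0.54, Rgr by -1.12 ± 0.61, Ttr by -0.70 ± 0.44, Rdh5 by -0.62 ± 0.46 and Rdh10 by 0.28 ± 0.26. Limma called 0 of 6 members and 0% of all genes. There were 2 members at an unadjusted p under 0.05, against 779 of all 12393 genes. The lens genes lay below saline as well, 14 of 14 with 0 called by limma, with means of 9.90, 9.04 and 9.56 against 13.68, 13.26 and 10.78, and with the lens mean as a covariate the differences were wider, at -2.27 for Rpe65, -1.85 for Lrat, -1.60 for Rgr and -1.12 for Rdh5, with 0 members called. Replicate 1 of P5 ECFC read 5.24 for Rpe65 beside 8.48 and 9.35, and without it the difference of Rpe65 was -0.49 and that of Lrat -0.70. On that array Dct, the melanin enzyme dopachrome tautomerase, read 9.71 beside 9.88 and 10.21 in its 2 replicates, and the mean of 9 melanin genes was 7.18 beside 7.12 and 7.78. It was the lowest of the 3 for Slc16a8, at 7.60 beside 8.32 and 8.89, for Krt8, at 6.46 beside 6.98 and 7.73, and for the mean of the 13 other pigment epithelium genes, at 9.10 beside 9.26 and 9.47. With the combination the differences ran from -1.20 ± 0.54 for Lrat to -0.06 ± 0.26 for Rdh10. Limma called 0 members and 0% of all genes here, with 1 member at an unadjusted p under 0.05, against 978 of all 12393 genes.

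With CD34+ cells at P5 all 6 genes were above saline: Rdh5 by 1.22 ± 0.46 (limma, adjusted p = 0.11), Rgr by 0.60 ± 0.61, Ttr by 0.53 ± 0.44, Rdh10 by 0.51 ± 0.26, Rpe65 by 0.46 ± 0.75 and Lrat by 0.25 ± 0.54. Limma called 0 of 6, where 8.46% of all genes were called. It gave 1 of the 6 an unadjusted p under 0.05, against 2796 of all 12393 genes. Of the 9 melanin genes 7 rose, among them Tyrp1 by 2.11 ± 0.55 (adjusted p = 0.019), Dct by 1.76 ± 0.43, Pmel by 1.74 ± 0.46, Tyr by 1.57 ± 0.35 and Mitf, the pigment cell transcription factor, by 0.76 ± 0.18. Dct read 12.25, 12.28 and 12.05 in P5 CD34 retinas and 9.43, 11.50 and 10.36 in P5 saline retinas, without overlap. How many of all genes separated in this way was not counted. In the same comparison 4 of 10 sclera and choroid stroma genes, whose layer also holds pigment cells, were called higher, and their mean was 8.76, 8.91 and 8.53 in P5 CD34 retinas against 7.73, 7.88 and 7.15 in saline. Of 7 ciliary epithelium genes 2 were called higher and 0 lower. The part of these tissues in the melanin difference was not tested.

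Whether a cell effect differed between the days was tested as the difference of differences. Limma called 0 of 6 members for ECFC, CD34+ cells and the combination, with 0.0323%, 1.9% and 0% of all genes called. It gave 0 members an unadjusted p under 0.05 for each, against 1480, 2102 and 1419 of all 12393 genes. The widest value was for Rpe65 with ECFC, -1.46 ± 1.06. With array weights, which count deviating arrays less, Rpe65 (-2.79, adjusted p = 0.036) and Lrat (-2.19, adjusted p = 0.012) passed in that test. That fit still held P5 ECFC replicate 1, at 5.24 for Rpe65 and 6.04 for Lrat. Without that array the unweighted P5 ECFC differences of both genes were smaller, as given above. Which arrays the weights counted less is not reported here.

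**Figure D3:**
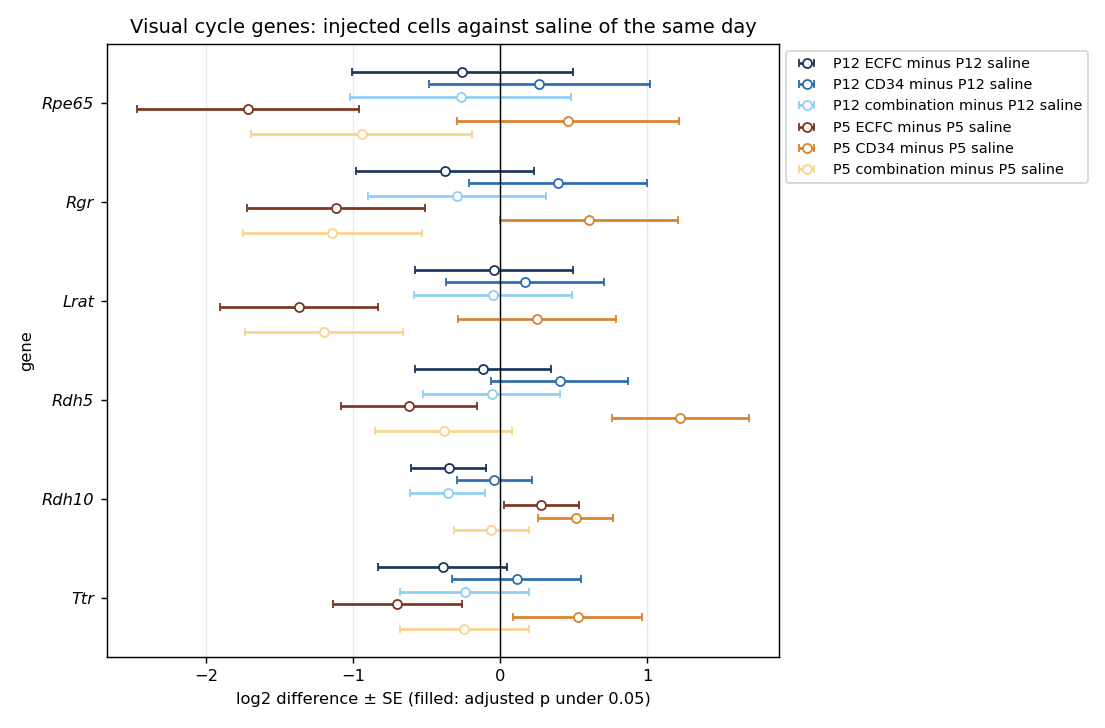
Log2 difference ± SE (horizontal axis) of the 6 measured genes between each cell injection and saline of the same day. All points are open, as none passed at an adjusted p under 0.05; the P5 ECFC differences reach -1.71 for Rpe65 and the P5 CD34 differences 1.22 for Rdh5.

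Within the 12 P5 arrays, levels of Rpe65, Ttr and Rdh10 were set against other measures, after the pattern had been seen. Rpe65 followed the mean of the 9 melanin genes, with Pearson's r = 0.644 (permutation p = 0.0192, adjusted over 18 relations 0.193) and Spearman's rho = 0.762 (permutation p = 0.0055, adjusted 0.0495). Without the 2 arrays farthest from the median melanin mean r was 0.651, and within groups 0.64. For Ttr the values were r = 0.607 (permutation p = 0.0257, adjusted 0.193) and rho = 0.783 (permutation p = 0.00388, adjusted 0.0495), and r was 0.561 without 2 arrays and 0.487 within groups. By Pearson's r neither relation passed the adjustment. The permutations, here and below, moved values freely among arrays, although arrays of one group share their treatment. These p-values therefore do not allow for the groups.

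Against the lens mean, Rpe65 had r = 0.144 (permutation p = 0.674) and rho = 0.028 (permutation p = 0.939) on the P5 arrays. Single arrays show this: P5 saline replicate 1 had a lens mean of 13.68 and Rpe65 at 7.96, and P5 CD34 replicate 1 had a lens mean of 7.68 and Rpe65 at 10.53. On the 18 other arrays, r of Rpe65 with the melanin mean was 0.17 (permutation p = 0.499) and rho 0.414 (permutation p = 0.0903), and without the 2 arrays farthest from the median melanin mean r was 0.73, so 2 arrays decide that value. For Ttr on these 18 arrays, r with the melanin mean was -0.0253 (permutation p = 0.921) and rho 0.238 (permutation p = 0.341). Rdh10 on the P5 arrays had r = -0.606 with the hybridisation control mean (permutation p = 0.0322, adjusted 0.193), rho = -0.594 (permutation p = 0.0461, adjusted 0.277), and r = -0.181 without the 2 farthest arrays, while r within groups was -0.902.

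**Figure D4:**
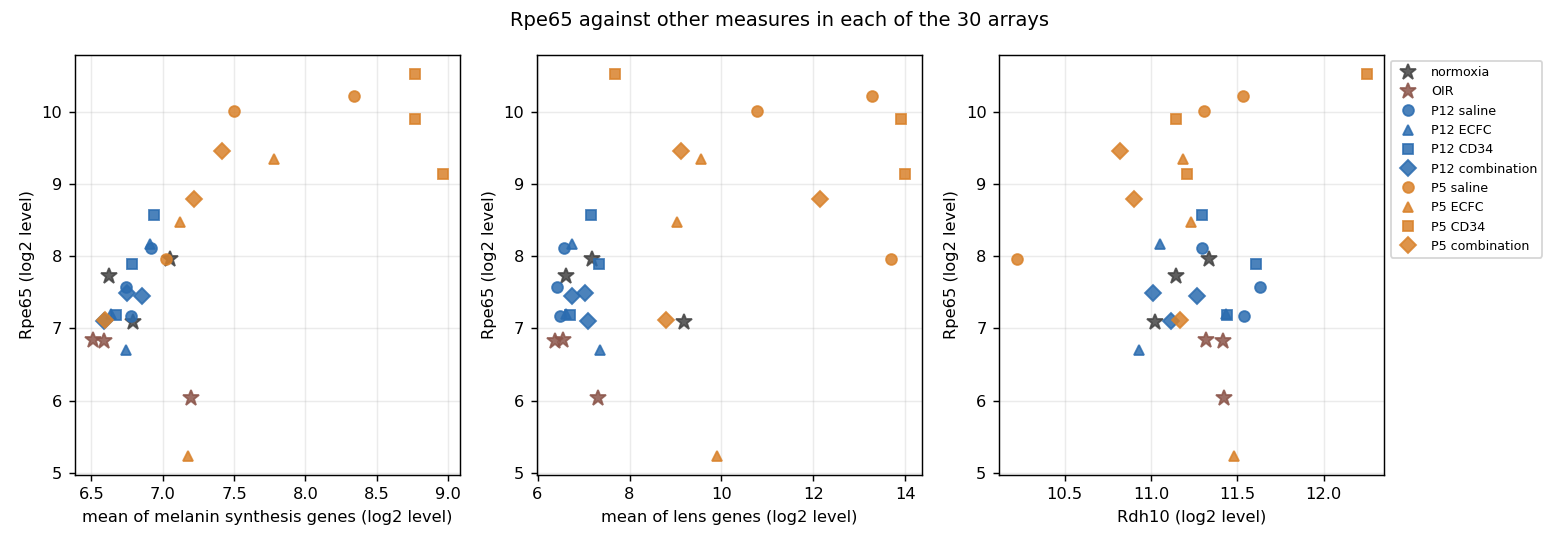
Log2 level of Rpe65 (vertical axis) in each of the 30 arrays against the mean log2 level of 9 melanin synthesis genes (left), of 14 lens genes (middle) and the level of Rdh10 (right); colours and shapes give the group. On the P5 arrays (orange) r was 0.644 with the melanin mean and 0.144 with the lens mean, a difference that was not tested, and P5 ECFC replicate 1 sits at the bottom of each panel at 5.24.

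For each member, the 5 genes with the most similar levels over all 30 arrays were ranked by Pearson's r, as a description over arrays that share groups and hybridisation. For Rpe65 the 5 nearest were Ttr (0.961), Rgr (0.945), Pon1 (0.934), Lrat (0.927) and Fap (0.91), and on the 18 arrays without P5 injection Pon1 and Fap stood at 0.656 and 0.677. Pon1, a lipid-bound esterase, and Slc6a20a, a proline transporter, recurred: Pon1 was among the 5 nearest of Rpe65, Lrat, Rdh5 and Ttr, and Slc6a20a of Rgr, Lrat and Rdh5. Pon1 read 10.09, 8.25 and 9.43 in P5 CD34 retinas, 7.37, 9.03 and 8.75 in P5 saline retinas and 6.48, 6.30 and 6.10 in OIR. For Rdh5 the nearest was Ptgds (0.955), the prostaglandin D synthase, with 0.583 on the 18 other arrays. Rdh10 had no member among its 5 nearest, which were Tm9sf3 (0.802), Eri1 (0.783), Itgav (0.739), Arl1 (0.738) and Ifngr1 (0.737).

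The 3 probe sets of Ttr gave the same direction. Against OIR, P5 saline was higher by 1.54 in the probe set used, and by 2.09 and 1.67 in the others, all 3 called with all probe sets tested. Over the P5 against the P12 groups the values were 1.02, 1.26 and 1.11. Against normoxia the probe set with 2.09 above passed, at 1.65 ± 0.52 (limma, adjusted p = 0.049), where the probe set used, whose suffix marks probes that can match other transcripts, did not (1.03 ± 0.44). The other 5 genes had 1 probe set each with their symbol alone.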

How the data were processed

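The authors deposited log2 values of 22690 probe sets, 1 for each array. Per the labels' protocols, 100 ng of total RNA from each retina was amplified and biotin-labelled. The submitters' processing notes name Partek, and the sources used here do not say how probes were summarised, background-corrected or normalized. Groups came from the labels.

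Of the probe sets, 64 were controls, 20380 had 1 gene symbol in the platform's annotation, 691 several and 1555 none; 29 of those with 1 symbol could not be matched to RefSeq by identifier. The probe set of highest mean was kept per gene, which left 12393 genes. The second probe set of Rdh5 names another gene as well and was left out. The deposited log2 values were fitted in R 4.3.3 with limma 3.58.1: 1 mean per group over 30 arrays, 20 residual degrees of freedom, two-sided eBayes tests and p-values adjusted by Benjamini-Hochberg over the 12393 genes, comparison by comparison. A gene was called at an adjusted p under 0.05. Each pup gave 1 retina; array medians lay between 8.16 and 8.49, replicates correlated at 0.964 to 0.997, and 0 pairs of arrays were identical. Precision is limited by the 3 arrays per group.

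Genes were named by this rule: all members, up to 6 called genes with the smallest p from each list of other pigment epithelium, melanin and retinoid genes, and the 5 genes nearest to each member. Genes of the choroid plexus, rod and Müller glia lists, and Rdh11, Rdh12, Rbp3, Abca4 and Rlbp1, fall outside it and were named after their values were seen. The members and lists were chosen with earlier results of these data known. The relations between measures across arrays and the promoter motifs were added after the levels had been seen. The settings varied were the scaling (quantile or median), testing of all probe sets, leaving out the 30% dimmest genes, trend and robust eBayes, array weights, a replicate block, only the groups compared, hybridisation control and lens means as covariates, and each array left out. The fit was tested on simulated data. Equal replicate numbers did not pair arrays: over 11 comparisons correlations of deviations ran from -0.45 to 0.45, with 0 comparisons above 0.1 in all pairs.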

Additional observations from a re-analysis of the deposited data

How the results depend on the processing

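With each array left out in turn, 739 of the members' differences stayed on their side of the threshold, with the direction kept where they were called, 15 lost a call, 2 gained one and 0 gained one of the opposite sign or turned; over the other settings the numbers were 856, 16, 27 and 1. Among all of these, 87 were differences called in neither setting whose sign changed. The 1 change of sign with a call was Rdh10 in P5 against P12 groups, which was not called at -0.10 and was called at 0.49 with the lens mean as covariate. Of the level values under other scalings, 5 moved by more than the spread between replicates, all in the P12 combination group or for Rdh10 in OIR.

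For P5 saline against OIR, counts of called members ran from 2 to 5 with an array left out, and were 2 with the lens mean covariate and 0 with only the groups compared. For P5 saline against P12 saline they ran from 1 to 4, and were 5 with array weights and 1 under the hybridisation control covariate, where the call was Rdh10, lower. For P5 saline against normoxia they ran from 0 to 1, and were 4 with array weights. The count was 1, Lrat higher, with all probe sets, without dim genes, and with the lens mean covariate. It was also 1 with the hybridisation control covariate, but there the call was Rdh10, lower, at -0.61, and Lrat did not pass. For P5 against P12 groups the count was 5 with any 1 array left out. With the hybridisation control covariate none of these 5 stayed called, and Rdh10, lower, was the 1 member called. P12 saline against OIR had 1 with that covariate (Rdh10) and 1 with only the groups compared (Rpe65). Array weights gave 1 for ECFC against saline at P12 (Rdh10), 1 at P5 (Lrat, -2.00) and 2 for the difference between days. The hybridisation control covariate gave 1 for ECFC against saline at P5 (Rdh10, 0.78), 2 for CD34+ cells at P5 (Rdh5, 1.49, and Rdh10, 0.79), and 1 each for the difference between days of ECFC and of CD34+ cells. The cause of these moves was not tested. With the replicate block the counts were 5 for P5 saline against OIR, 3 for P5 saline against P12 saline, 5 for P5 against P12 groups and 0 for the others, so it changed no count; the numbers do not pair the arrays. Signals near the floor, as Rpe65 at 5.24 on 1 array, bound a level rather than measure it.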
